A study of Mus musculus with 12 samples.

Results

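The genes described here are the nuclear genes of oxidative phosphorylation, taken as the protein-coding rows of the count table whose symbols name subunits of the 5 respiratory complexes: the Nduf a, b, c, s and v series, Sdh, Uqcr, Cox4 to Cox8 and Atp5, with Cox4i2 left out. The rule selects 90 of 55487 genes, or 90 of 21936 protein-coding ones, under 89 symbols. By complex these are 36 genes of complex I, 4 of complex II, 8 of complex III, 19 of complex IV and 18 of complex V. The same pattern takes in 4 assembly factors of complex II (Sdhaf1 to Sdhaf4), kept apart here, and Cox7a2l, whose product links complexes into supercomplexes. Ndufa4 and Ndufa4l2 are counted with complex IV, where the Ndufa4 product is now placed. Some subunit genes carry other names and stay outside the rule, such as Ndufab1, the acyl carrier protein of complex I, and Atpif1, the inhibitor of the ATP synthase.

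The samples were whole lungs of C57BL/6NCr mice aged 6, 12, 20 or 30 months, written 6M, 12M, 20M and 30M, with 3 RNA-seq libraries at each age and no treatment named at any age. Polyadenylated RNA was sequenced, so a level is that of a transcript in the mix of all lung cells. No label states that each library came from a separate mouse, and the p-values therefore describe how libraries vary, which may be technical.

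The respiratory complexes sit in the inner mitochondrial membrane. Complexes I and II pass electrons from NADH and succinate to ubiquinone, complex III passes them on to cytochrome c and complex IV to oxygen, while complexes I, III and IV pump protons that drive ATP synthesis by complex V. Most subunits are encoded in the nucleus and must be matched by those made inside the mitochondrion, and their genes are known as targets of the factors NRF1 and GABP (an ETS factor) and of the coactivator PGC-1alpha. In the lung, alveolar type 2 cells and airway epithelium are rich in mitochondria, and a sleeve of cardiac muscle runs around the pulmonary veins of the mouse.

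Libraries held 12152066 to 15058628 counts, of which the members took 0.604% to 0.812%. The lung epithelial and endothelial markers were abundant in every library, with summed levels of 43043 to 97104 and 1659 to 3250.2 CPM (counts per 1e+06 counts of the tested genes, scaled by the TMM method). In 3 libraries expression followed gene GC content relative to the 6M mean, with Spearman rho = 0.357 in 20M_221, 0.462 in 20M_222 and 0.323 in 30M_220, against 0.226 in 12M_208 and -0.0852 to 0.050 in the others (18382 genes, a description). In 20M_222 the 12 skeletal muscle markers summed to 3831 CPM, against 12.5 to 48.6 in the other libraries. A library is named by its age and replicate number, and values of an age are given in the order 6M_201, 6M_202, 6M_203, then 12M_206, 12M_207, 12M_208, then 20M_213, 20M_221, 20M_222, then 30M_216, 30M_218, 30M_220.

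As transcripts these genes were abundant. Per kilobase of exon, the median member stood at percentile 92.8 of the tested genes (those with enough counts, 18407) that have an exon length, and 85 of the 87 tested members lay above the median gene. The summed level of all members was 6804 ± 421, 7439 ± 542, 6587 ± 1001 and 7243 ± 1146 CPM at 6M, 12M, 20M and 30M (mean ± SD, n = 3), with ranges that overlapped between all ages. Complex V held the largest sum with 2324 ± 142, 2555 ± 296, 2253 ± 354 and 2475 ± 292 CPM, and complex I, with 36 genes against 18, held 1867 ± 110.3, 2044 ± 86.0, 1808 ± 253 and 1990.2 ± 375 CPM.

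Transcript levels within a complex differed widely, although most subunits are built in at fixed ratios: from 1.83 to 103 CPM per kb in complex I, 8.75 to 180.2 in complex IV and 5.95 to 154 in complex V. In complex IV the leading transcripts were Cox8a at 180.2 CPM per kb (149.5 to 224 over the 12 libraries), Cox4i1 at 174, Cox6b1 at 169.5 and Cox6a1 at 166, whose ranges overlapped. In complex V the genes of the catalytic alpha and beta subunits led, Atp5a1 at 154 and Atp5b at 121 CPM per kb. Complex III was led by Uqcrh, the hinge protein beside cytochrome c1, at 106 and by Uqcr10 at 102, with Uqcrc1, a core subunit, lowest at 27.1. In complex I the accessory membrane subunits Ndufb11 and Ndufc2 led at 103 and 94.9, and Ndufb2 was lowest at 1.83. The 4 subunits of complex II lay closest together among the 5 complexes, though the others have 8 to 36 genes and a smaller set tends to span less. Sdhd and Sdhc, which anchor the complex in the membrane, were at 68.3 and 30.5 CPM per kb, the flavoprotein gene Sdha at 53.8 and the iron-sulfur protein gene Sdhb at 31.5. The assembly factors of complex II were lower than its subunits per kb, from 0.899 for Sdhaf3 and 6.31 for Sdhaf1 to 15.2 for Sdhaf4. The size of this gap depends on length. The longest coding transcript has 4323 bases for Sdhaf3, 2490 for Sdhaf1 and 683 for Sdhaf4, against 1142 for Sdhb and 3171 for Sdhc. Cox7a2l was at 113 CPM per kb. Order depends on the length used. Divided by the longest coding transcript instead of all exons, Cox4i1 came to 352 CPM per kb and led complex IV. Atp5b then came to 268 against 181 for Atp5a1. Ndufb2 and Atp5g1 came to 2.36 and 6.19, but their longest coding transcripts are themselves long, 4371 and 4715 bases. The low ends of complexes I and V thus depend on these long models, and which transcripts were expressed was not tested.

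3 members had too few counts to be tested. Cox8c had 0 counts in every library, Cox7b2 had 1 count in each of 12M_207 and 12M_208 and 0 elsewhere, and a second row named Atp5o (ENSMUSG00000116933) had 0. With 3 counts as the limit that a count of 0 allows, Cox8c could have up to 3 counts per library.

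**Figure D1:**
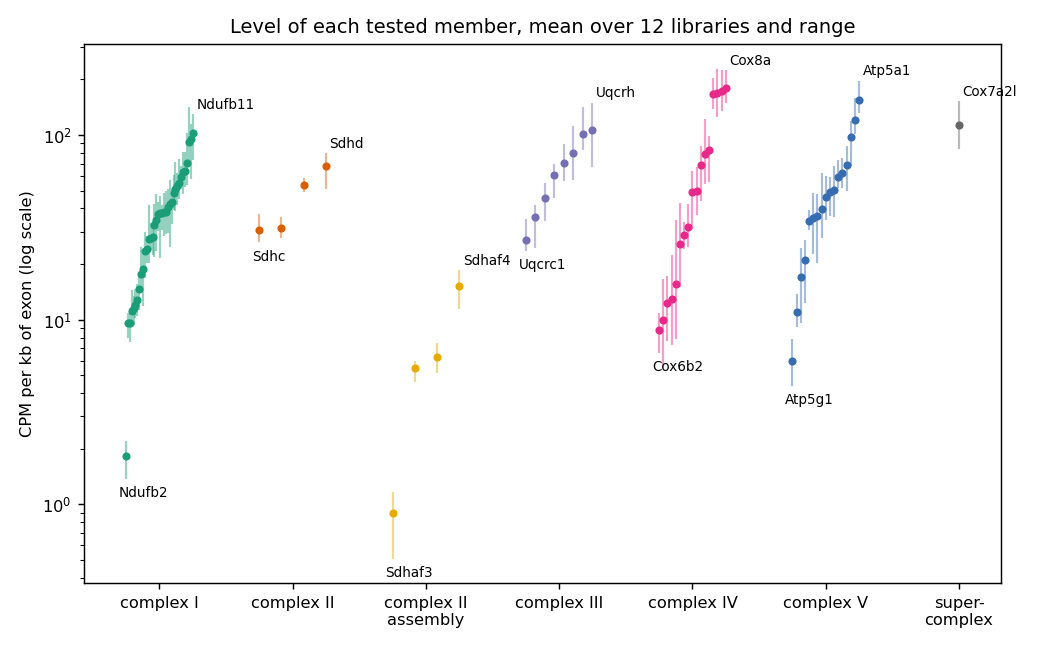
Mean level of each of the 87 tested members over the 12 libraries, in CPM per kb of exon on a log axis, with a line from the lowest to the highest library and the members ordered by level within a complex. Cox8a leads at 180.2 CPM per kb and Sdhaf3, an assembly factor of complex II, is lowest at 0.899.

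At 30M against 6M, 0 of 87 members passed the test (edgeR's quasi-likelihood test, Benjamini-Hochberg adjusted p under 0.05 over all 18407 genes, of which 1.96% passed). Small differences above 0 prevailed: 69 of 87 estimates were above 0 (79.3%, against 50.5% of all genes), with a median log2 change of 0.11 against 0.0028 for all genes. At an unadjusted p under 0.05, 3 members were higher and 0 lower, where 8.0% of all genes were higher and 3.57% lower. DESeq2 called 1 member, Cox5b (4.09% of all genes passed), and limma voom 0 (3.23% passed). In whole lung, fewer cells of a type and less RNA per cell cannot be told apart.

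The data limit how large a change of these transcripts could be. The 95% interval of the change lay within 1.5-fold in either direction for 49 members and within 2-fold for 82 (94.3%, against 66.6% of all genes). The 5 with wider intervals were Ndufb1-ps, Cox6a2, Ndufa4l2, Cox8b and Cox5b-ps. Leaving out 1 library at a time moved the median between -0.020 without 30M_218, where its sign changed and 39 of 87 members were above 0, and 0.22 without 30M_220, where 78 were. It was 0.050 without 6M_201 and 0.063 without 30M_216. The number higher at an unadjusted p under 0.05 was 2 without 6M_201 (7.22% of all genes) or 30M_218 (7.08%), 5 without 20M_213 (8.37%), 7 without 6M_202 (6.71%) and 12 without 30M_220 (7.86%).

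**Figure D2:**
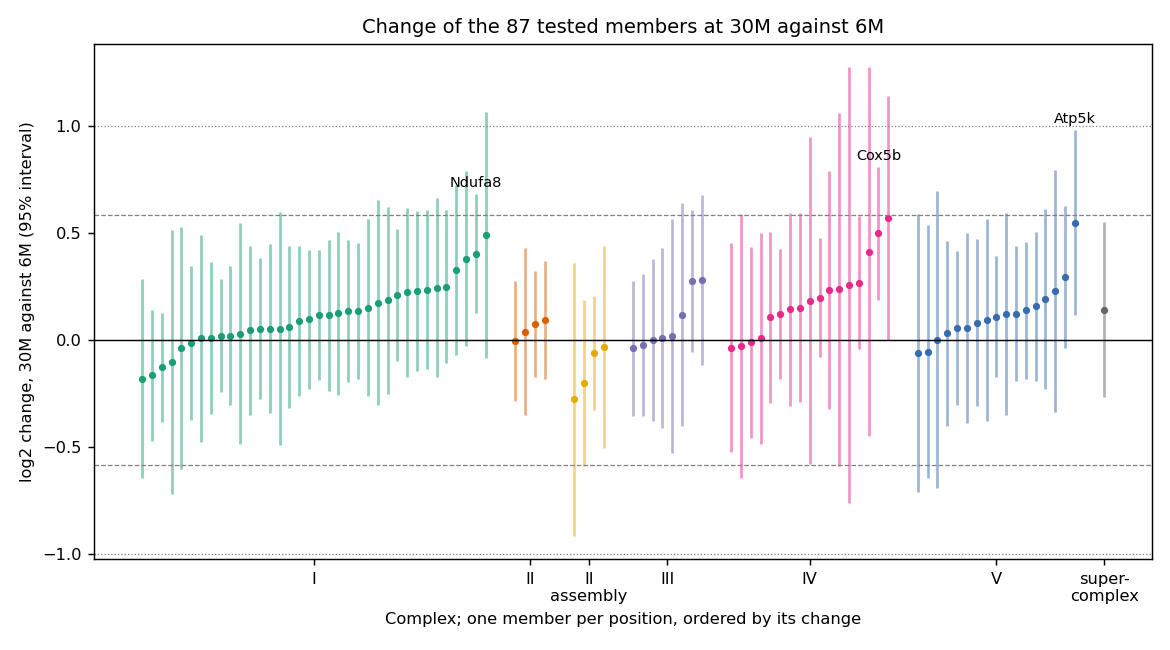
Log2 change at 30M against 6M of each of the 87 tested members (point) with its 95% interval (line), by complex and ordered within it. Dashed lines mark 1.5-fold and dotted lines 2-fold. The intervals of Cox5b, Ndufa8 and Atp5k lie above 0, and 82 of 87 lie within 2-fold.

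The member with the smallest p was Cox5b (ENSMUSG00000061518, chromosome 1, 36691449 to 36693681, plus strand, on GRCm38 here and below), which encodes a nuclear subunit of cytochrome c oxidase. Its level was 39.6, 43.5 and 39.4 CPM at 6M, 46.1, 48.6 and 54.6 at 12M, 50.5, 50.4 and 61.1 at 20M and 47.7, 66.8 and 58.4 at 30M. Every library of the 3 later ages was above every 6M library, while the later ages overlapped one another. The log2 change at 30M against 6M was 0.50 (SE 0.14, adjusted p = 0.120 by edgeR), and the slope was 0.019 per month (adjusted p = 0.0975). With 1 library left out at a time, the adjusted p of the first ran from 0.0606 to 0.429 and that of the slope from 0.0342, without 30M_216, to 0.294. DESeq2 gave 0.0459 for the change and 0.0359 for the slope. A near copy makes these counts uncertain: Cox5b-ps, also a member, is 99.2% identical to Cox5b over 390 bases. Cox5b-ps was at 4.03, 4.04 and 4.85 CPM at 6M and 5.89, 6.56 and 6.72 at 30M, again without overlap (log2 0.57, SE 0.26, adjusted p = 0.434).

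Ndufa8 (ENSMUSG00000026895, chromosome 2, 36036326 to 36049406, minus strand), an accessory subunit of complex I on the side of the intermembrane space, also had its 6M libraries below all others. It was at 33.7, 35.2 and 35.7 CPM at 6M, 40.6, 40.2 and 52.3 at 12M, 39.9, 42.3 and 41.7 at 20M and 42.8, 50.4 and 45.1 at 30M. All 9 later libraries were above the 3 of 6M, the highest being 12M_208. Its log2 change at 30M was 0.40 (SE 0.13, adjusted p = 0.175), and no near copy was found.

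Atp5k (ENSMUSG00000050856, chromosome 5, 108433244 to 108434448, minus strand) encodes subunit e of the ATP synthase, which lies where 2 synthases pair in the membrane. Its level was 14.0, 22.2 and 17.5 CPM at 6M, 15.5, 20.0 and 18.9 at 12M, 28.2, 20.0 and 28.8 at 20M and 24.8, 29.8 and 23.9 at 30M. The 6M and 12M libraries covered the same range, and those of 30M were above both. The log2 change was 0.55 at 30M (SE 0.20, adjusted p = 0.260) and 0.52 at 20M (adjusted p = 0.638), with a slope of 0.027 per month (adjusted p = 0.107, and 0.0454 by DESeq2). A pseudogene copy, 95.7% identical over 210 bases, makes its counts uncertain.

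**Figure D3:**
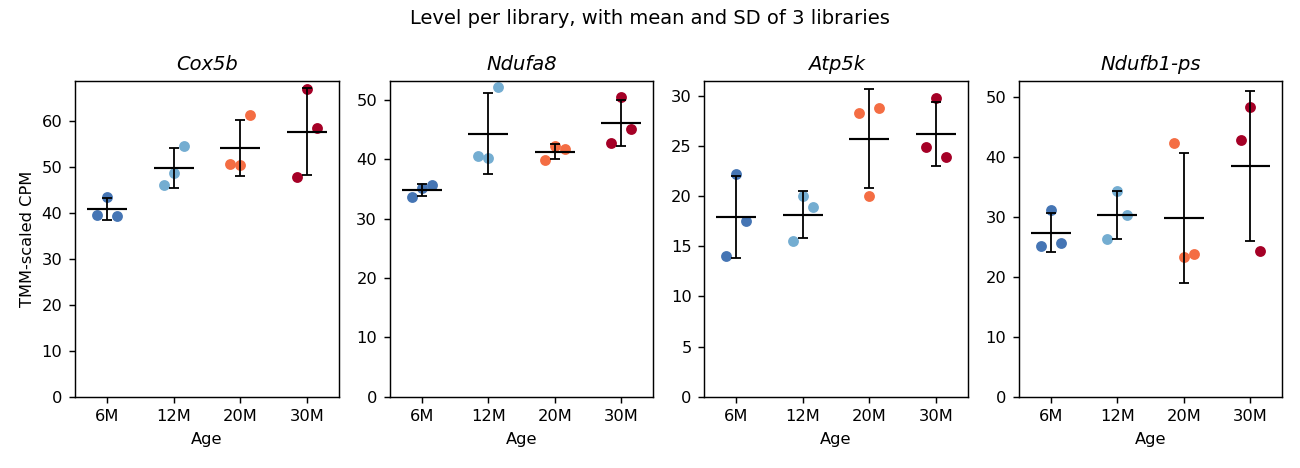
TMM-scaled CPM of Cox5b, Ndufa8, Atp5k and Ndufb1-ps in each of the 12 libraries (points), with the mean (horizontal line) and SD (error bar) of the 3 libraries of an age. For Cox5b and Ndufa8 the 6M libraries lie below all others, and for Ndufb1-ps 2 of 3 libraries at 20M and 1 of 3 at 30M lie near or below the 6M level.

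The start regions of the members were searched for motifs of factors known for mitochondrial genes. RefSeq start windows (GRCm38.p6, 250 bases before to 50 after a start) matched 72 of the 89 symbols, in 77 windows, and both strands were read. The NRF1 palindrome (GCGCA followed by its reverse complement) was in 6.49% of the members' windows and 0.971% of all 32851 windows, the ETS motif CCGGAAG in 26.0% and 8.86%, and the YY1 motif AAGATGGC in 13.0% and 2.75%. GC boxes (GGGCGG) were in 42.9% and 35.7%, and the TATA motif TATAAA in 13.0% and 13.6%. The median GC content of the windows was 57.7% for the members and 52.7% for all, and its part in these shares was not tested. A match is a string of letters, not a binding site.

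The regions before 4 starts are printed to show members that hold the motifs beside Cox5b, the member with the smallest p, which holds none. They run 5′ to 3′ on the strand of the gene, 250 bases up to the base before the start, at chr5:108434400-108434649 (minus strand) for Atp5k, chr5:115348959-115349208 (minus strand) for Cox6a1, chr16:84834977-84835226 (minus strand) for Atp5j and chr1:36691237-36691486 (plus strand) for Cox5b. Capitals mark matches of the 5 motifs on either strand. Atp5k holds the NRF1 palindrome, Cox6a1 the palindrome, 2 GC boxes and the ETS motif in reverse, Atp5j (subunit F6 of the synthase stalk) the YY1 and ETS motifs, and Cox5b none of the 5. The full window of Atp5k also has 1 ETS match that does not lie wholly in the printed part. Atp5j has another start window, at chr16:84835576-84835875 (minus strand), which holds 2 GC boxes and neither the YY1 nor the ETS motif.
Atp5k: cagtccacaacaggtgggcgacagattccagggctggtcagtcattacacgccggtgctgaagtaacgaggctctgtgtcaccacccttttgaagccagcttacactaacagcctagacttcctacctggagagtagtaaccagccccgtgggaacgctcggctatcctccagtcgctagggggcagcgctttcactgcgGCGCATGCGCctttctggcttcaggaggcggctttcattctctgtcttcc
Cox6a1: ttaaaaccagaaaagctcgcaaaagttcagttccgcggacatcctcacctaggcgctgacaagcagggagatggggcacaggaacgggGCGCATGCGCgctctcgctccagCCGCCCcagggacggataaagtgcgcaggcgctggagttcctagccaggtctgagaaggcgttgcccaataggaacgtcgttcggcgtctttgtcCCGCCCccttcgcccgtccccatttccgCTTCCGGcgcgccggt
Atp5j: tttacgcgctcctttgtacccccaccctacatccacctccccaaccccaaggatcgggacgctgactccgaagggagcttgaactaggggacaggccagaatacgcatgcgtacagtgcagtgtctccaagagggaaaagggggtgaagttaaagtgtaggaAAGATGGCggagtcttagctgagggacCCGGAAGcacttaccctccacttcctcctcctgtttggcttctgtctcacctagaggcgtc
Cox5b: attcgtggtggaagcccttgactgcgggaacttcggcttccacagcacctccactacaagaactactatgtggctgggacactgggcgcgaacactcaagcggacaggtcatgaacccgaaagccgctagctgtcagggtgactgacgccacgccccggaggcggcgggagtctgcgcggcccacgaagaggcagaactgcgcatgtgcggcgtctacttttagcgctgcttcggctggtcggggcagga
The log2 changes of Atp5k and Cox5b at 30M against 6M, with and without the palindrome, were 0.55 and 0.50 as above, and those of Cox6a1 and Atp5j were 0.12 and 0.11 (adjusted p = 0.853 and 0.861). Atp5j was at 95.2, 114 and 101 CPM at 6M and 112, 123 and 99.4 at 30M. Letters in these windows are a description and were not related to the changes by a test.

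Members of the same complex differed in size and direction of change at 30M against 6M. In complex I, 30 of 36 estimates were above 0 (median 0.11) and 1 member, Ndufa8, had an unadjusted p under 0.05. After Ndufa8 came Ndufa1, a small accessory subunit of the membrane arm, at 22.5, 30.6 and 23.1 CPM at 6M and 31.0, 42.8 and 25.5 at 30M (log2 0.38, SE 0.19, adjusted p = 0.489), and the groups overlapped. Below 0 were 2 of the core subunits that carry iron-sulfur clusters. Ndufs1 was at 84.8, 82.7 and 76.1 CPM at 6M and 74.8, 73.4 and 68.9 at 30M, without overlap (log2 -0.17, SE 0.14, adjusted p = 0.766). Ndufs7 was at 64.8, 72.1 and 63.6 CPM at 6M and 66.4, 64.2 and 52.8 at 30M (log2 -0.13, adjusted p = 0.795), with overlap. Ndufc2 was at 71.2, 74.1 and 80.1 CPM at 6M and 80.0, 75.2 and 43.8 at 30M, its 30M value resting on 30M_220 (log2 -0.18, and 0.046 without that library).

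In complex II the 4 estimates ran from -0.0036 (Sdhc) over 0.039 (Sdhd) and 0.074 (Sdha) to 0.10 (Sdhb), and all 4 intervals lay within 1.5-fold. Sdhb was at 66.6, 76.8 and 63.1 CPM at 6M and 80.4, 75.04 and 65.2 at 30M, and Sdhd at 81.4, 85.3 and 85.04 CPM at 6M and 97.7, 98.2 and 62.8 at 30M, with 30M_220 as the low library of its age in both. The 4 assembly factors of the complex were all below 0 (median -0.13, adjusted p from 0.784 to 0.982). Sdhaf3, which with Sdhaf1 helps to mature the iron-sulfur subunit, was at 4.55, 4.95 and 5.82 CPM at 6M and 4.43, 4.26 and 3.94 at 30M, without overlap (log2 -0.28, SE 0.30, adjusted p = 0.831). Sdhaf1 was at 17.7, 15.7 and 17.8 CPM at 6M and 15.9, 15.7 and 12.9 at 30M (log2 -0.20, SE 0.18, adjusted p = 0.784), with overlap.

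In complex III the median was 0.014 with 6 of 8 above 0, and the estimates of the core subunits Uqcrc1 and Uqcrc2 (-0.025 and -0.040) and of the Rieske protein gene Uqcrfs1 (0.00112) lay near 0. The small subunits Uqcr10 and Uqcr11 had the largest estimates, 0.28 and 0.28. Complex IV had the highest median, 0.18, with 14 of 17 above 0. Complex V had a median of 0.11 with 15 of 17 above 0. Its catalytic subunit genes were at log2 0.14 (Atp5a1) and 0.081 (Atp5b), and Atp5b was at 451, 512 and 492 CPM at 6M and 543, 430.3 and 566 at 30M.

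In 6 members all 30M libraries were above all 6M libraries (6.90%, against 9.89% of all genes): Cox5b, Cox5b-ps, Ndufa8, Ndufa10, Atp5k and Atp5o. In 2 members (2.30%, against 8.66% of all genes) all were below, Ndufs1 and Sdhaf3. Both shares were under those of all genes.

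The other ages gave 0 calls among the members as well, by edgeR. At 12M against 6M, where 0.0% of all genes passed (0.0489% by DESeq2 and 0.0% by voom, with 0 members each), 72 of 87 estimates were above 0 (median 0.11, and 0.017 for all genes). The median was 0.071 without 6M_201 or 12M_208 and 0.16 without 6M_202. Without overlap, 17 members had higher 12M libraries (19.5%, against 6.3% of all genes) and 1, Cox6b2, lower ones (5.81% of all genes). Among the 17 were 3 of the 4 complex II genes (Sdha, Sdhc and Sdhd) and the synthase genes Atp5a1, Atp5c1 and Atp5g3. The smallest p belonged to Ndufa8 (log2 0.35), Cox5b (0.29) and Cox6a1 (0.27) above 0 and to Sdhaf2 (-0.15), Cox6b2 (-0.21) and Atp5md (-0.21) below, all with adjusted p = 0.988. At an unadjusted p under 0.05 there was 1, Ndufa8 (3.6% of all genes).

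At 20M against 6M (0.0163% of all genes passed) the median was -0.031, with 41 of 87 above 0. The unadjusted p was under 0.05 for 2, Cox5b (log2 0.40) and Atp5k, both higher (7.8% of all genes). DESeq2 called 0 members (0.304% of all genes passed) and voom 2 (4.22% passed), Ndufv2 and Atp5j2, both lower. With voom, which gives libraries weights, 25 members were lower and 4 higher at an unadjusted p under 0.05 (13.6% and 15.2% of all genes). The median rested on single libraries: it was -0.19 without 20M_213, where 17 members were lower at that p by edgeR (9.38% of all genes), -0.072 without 6M_201, 0.026 without 6M_202 and 0.031 without 20M_221. Ndufv2, a core subunit of the NADH-binding module, was at 88.8, 103 and 95.1 CPM at 6M and 102, 53.4 and 62.8 at 20M (log2 -0.40, SE 0.26, adjusted p = 0.656 by edgeR, and 0.13 with the term for 3 libraries described below), so that 20M_213 stood with the 6M libraries and the other two below. Atp5j2, subunit f of the ATP synthase, was at 117, 139 and 138 CPM at 6M and 144, 67.2 and 75.6 at 20M (log2 -0.46, adjusted p = 0.656 by edgeR), with the same split of the 20M libraries. Ndufs8, another iron-sulfur core subunit, was at 52.8, 50.6 and 51.4 CPM at 6M and 48.3, 36.5 and 38.8 at 20M (log2 -0.32, adjusted p = 0.646), without overlap. Sdhaf2, which attaches the flavin to Sdha, was at 40.7, 43.3 and 42.8 CPM at 6M and 40.1, 36.8 and 33.0 at 20M (log2 -0.20, adjusted p = 0.648), also without overlap. Without overlap 5 members were higher (7.77% of all genes) and 2 lower (7.58% of all genes) at 20M.

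Between later ages the median was -0.16 at 20M against 12M, -0.027 at 30M against 12M and 0.14 at 30M against 20M, with 16, 37 and 74 of 87 above 0. In these comparisons 0 members were called by edgeR (0.0%, 0.712% and 0.212% of all genes passed), by DESeq2 (0.0489%, 2.74% and 1.73%) or by voom (0.0%, 1.02% and 1.15%). By edgeR 3, 2 and 0 members had an unadjusted p under 0.05 (11.2%, 10.9% and 8.89% of all genes). Voom gave 33 members lower at 20M against 12M (13.9% of all genes) and 32 higher at 30M against 20M (10.5%). By edgeR, leaving out 20M_213 gave 26 lower in the first (10.5% of all genes) and 27 higher in the last (9.81%), and leaving out 30M_220 gave 23 higher in the last (8.64%). The medians moved as well. At 20M against 12M the median was -0.32 without 20M_213, -0.079 without 20M_221 and 0.085 with the term for 3 libraries. At 30M against 12M it was -0.14 without 30M_218, 0.11 without 30M_220, 0.020 without 12M_208, 0.042 with voom and 0.10 with the term, and it was below 0 but over 1.5 times away without 12M_206 (-0.061), 30M_216 (-0.069) or 20M_213 (-0.0099). At 30M against 20M it was 0.28 without 20M_213, 0.26 without 30M_220, 0.051 without 20M_221, 0.030 without 30M_218 and 0.0030 with the term, where 45 of 87 members were above 0. These comparisons share libraries with those above. At 30M against 20M the smallest p above 0 belonged to Ndufa3 (log2 0.40), Ndufs8 (0.34) and Ndufc1 (0.32), and below 0 to Ndufa4l2 (-0.66), Ndufb2 (-0.24) and Cox8b (-0.36), with adjusted p of 0.588 to 0.849. Of these, Ndufa4l2 was at 0.41 without 20M_221, 20M_222 and 30M_220, and Cox8b at 0.11 with voom. In the joint test over the 4 ages edgeR called 0 members (1.11% of all genes passed), DESeq2 0 (4.28%) and voom 4 (9.01%), which were Ndufv2, Ndufs8, Cox7a2 and Atp5j2. By edgeR 3 had an unadjusted p under 0.05 in it (11.2% of all genes). For the slope per month edgeR called 0 (2.68% of all genes passed), DESeq2 2, Cox5b and Atp5k (4.89%), and voom 1, Cox5b (3.18%). By edgeR 5 had an unadjusted p under 0.05 for the slope (13.3% of all genes), all above 0: Cox5b, Cox5b-ps, Atp5k, Ndufa8 and Ndufa1. Without 30M_216 edgeR called 1, Cox5b (2.46% of all genes passed). Below 0, the smallest p of the slope belonged to Ndufs1 (-0.0072 per month), Ndufc2 (-0.012, and 0.0014 without the same 3 libraries) and Ndufs7 (-0.0055) with adjusted p of 0.638, 0.644 and 0.677.

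At 20M and 30M the libraries of 1 age lay far apart. Relative to the 6M mean, the median member was at -0.10, 0.089 and 0.012 (log2) in the 6M libraries, 0.032, 0.13 and 0.18 at 12M, 0.17, -0.24 and -0.13 at 20M and 0.19, 0.28 and -0.22 at 30M. The 3 libraries below -0.1 among the later ages, 20M_221, 20M_222 and 30M_220, are the 3 with the highest rho between expression and GC content (0.357, 0.462 and 0.323). In 12M_208, with the next highest rho (0.226), the median member was at 0.18. Across all 12 libraries the median of all tested genes stayed between -0.0050 and 0.028. The TMM scaling uses these same genes and holds their median near 0 by construction, so this is no sign that they were stable.

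Within 30M, 72 of 87 members (82.8%) were lower in 30M_220 than in both other libraries, against 36.4% of all genes. Within 20M, 63 (72.4%) were lower in 20M_221 and in 20M_222 than in 20M_213, against 39.0% of all genes. Both held for 61 members (70.1%, against 25.2% of all genes), among them 27 of 36 in complex I, 6 of 8 in complex III, 11 of 17 in complex V and 9 of 17 in complex IV. Cox6c, a small subunit of complex IV, was at 224, 111 and 121 CPM at 20M and 214, 227 and 109.8 at 30M. Atp5l, subunit g of the synthase, was at 133, 62.1 and 68.9 CPM at 20M and 132, 158 and 64.5 at 30M. At 6M, Cox6c was at 167, 199 and 197 and Atp5l at 105, 142 and 106 CPM. In both genes the 3 low libraries were below every 6M library, and the other late ones were within or above the 6M range. These 2 genes were chosen after their values were seen. Near copies make their counts uncertain: Cox6c has 2 elsewhere, both pseudogenes, and Atp5l has 9, of which 8 are pseudogenes.

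Other gene groups moved with the members between libraries. The median of 77 cytosolic ribosomal protein genes was -0.32, -0.25 and -0.31 in the 3 libraries and 0.22, 0.31 and 0.50 in the other late ones, and that of 77 mitochondrial ribosome genes -0.22, -0.18 and -0.31, against 0.074, 0.064 and 0.15. The 9 lung epithelial markers summed to 79603, 59505 and 51730.3 CPM at 20M and 74858, 66436 and 43043 at 30M. Their sum too was lower in the 3 libraries than in the others of the same age. Sftpc, Sftpa1, Lamp3, Ager, Hopx and Scgb1a1 followed the sum at both ages. Foxj1 did not, at 136, 220 and 189 CPM at 20M and 142, 104 and 134 at 30M. Neither did Sftpb, at 3116, 3093 and 3442 CPM at 20M and 3273, 2472 and 3069 at 30M. Sftpd was at 513 CPM in 30M_220 and 510 in 30M_218. The 7 endothelial markers summed to 1659, 2616 and 2771 CPM at 20M and 1988, 1862 and 3014 at 30M, higher in the 3 libraries. The part of these groups and markers in the result was not tested. Among the members, the shift of 30M_220 from the other 30M libraries had Spearman rho = 0.328 with GC content and 0.101 with exon length, and that of the 20M pair 0.430 and 0.0390 (87 genes from shared libraries, a description). The median GC content of the members was 51.3%, against 50.1% for all genes, and with the GC trend of each library removed the median change at 30M against 6M was 0.091.

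**Figure D4:**
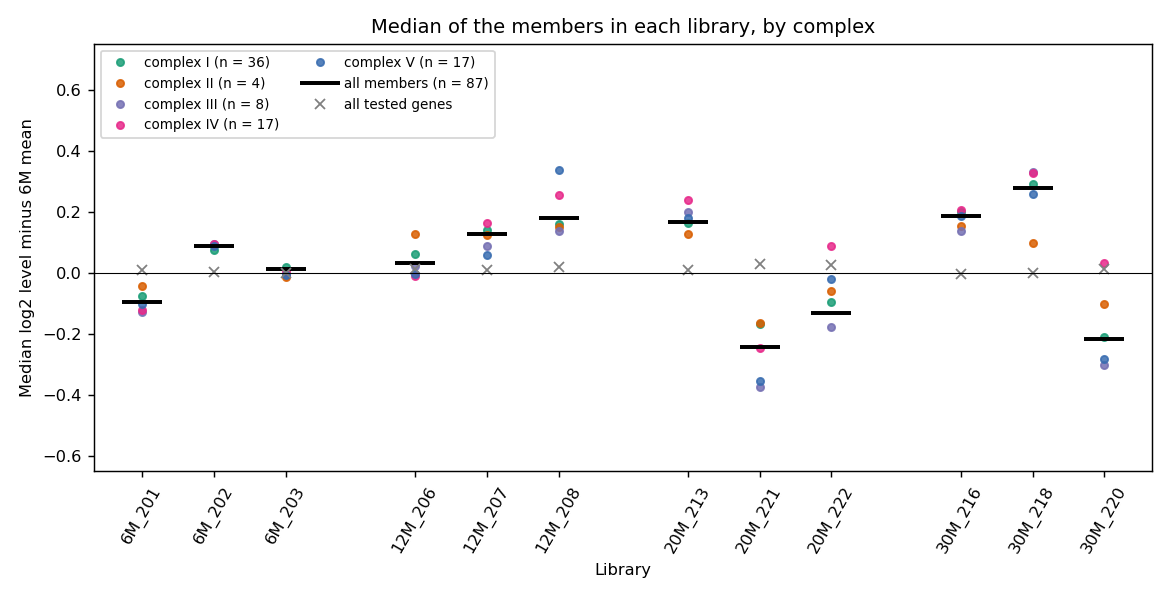
Median log2 level of the members relative to their 6M mean in each of the 12 libraries, for all 87 tested members (black bar), for each complex (coloured points, the 4 assembly factors of complex II not drawn) and for all tested genes (grey cross). The black bars of 20M_221, 20M_222 and 30M_220 lie at -0.24, -0.13 and -0.22, below the other libraries of their ages.

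The comparison of 30M with 6M depends on these libraries, where the median member was lowest among the later ages. The counts and calls of higher members below are only a description. By construction, late estimates of members low in these libraries rise in fits without these libraries or with a term for them. Without the 3 of them, which leaves 1 library at 20M and 2 at 30M, the median was 0.22 with 78 of 87 members above 0, and 20 members had an unadjusted p under 0.05, all higher (23.0%, where 8.67% of all genes were higher). With a term for the 3 libraries in the fit, the median was 0.22 at 30M and 0.20 at 20M, and 24 (9.43% of all genes) and 17 members (2.97% of all genes) had an unadjusted p under 0.05, all higher. Each of these fits called 1 member at 30M against 6M, where 1.8% and 2.64% of all genes passed. It was Ndufb1-ps (ENSMUSG00000113902, chromosome 12, 101968090 to 101977068, minus strand), annotated as protein-coding in the table despite its symbol, and it is named for this after its values were seen. Ndufb1-ps was at 25.2, 31.1 and 25.7 CPM at 6M, 26.3, 34.3 and 30.3 at 12M, 42.3, 23.3 and 23.8 at 20M and 42.8, 48.3 and 24.3 at 30M. Its log2 change was 0.74 without the 3 libraries (SE 0.16, adjusted p = 0.0485) and 0.73 with the term (SE 0.13, adjusted p = 0.0136), against 0.49 with all libraries (SE 0.27, adjusted p = 0.536). For the slope, Ndufb1-ps and Uqcr10 were called without the 3 libraries (2.75% of all genes passed) and Ndufb1-ps with the term (3.94%), which also called it in the joint test (1.55%). Within an age, the spread between libraries was 0.125 for the median member at 6M (SD of log2 level), 0.149 at 12M, 0.244 at 20M and 0.302 at 30M, against 0.165, 0.261, 0.255 and 0.287 for the median gene.

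Complex IV has subunits with a heart and skeletal muscle form beside a general one, and both forms were present. The share of Cox6a2 in the sum of Cox6a1 and Cox6a2 (CPM per kb) was 11.3, 16.6 and 8.56% at 6M, 9.23, 15.5 and 10.5% at 12M, 14.6, 9.81 and 20.6% at 20M and 11.02, 9.83 and 23.7% at 30M. It was highest in 20M_222 and 30M_220, and the ages overlapped. Cox6a2 itself was at 20.7, 11.5 and 28.9 CPM at 20M and 13.9, 14.0 and 29.2 at 30M (log2 change at 30M against 6M 0.41, interval -0.45 to 1.27), and Cox6a1 at 125, 109 and 115 CPM at 20M and 116, 133 and 97.3 at 30M. The 10 cardiac muscle markers summed to 777, 916 and 553 CPM at 6M, 649.9, 911 and 1131 at 12M, 937, 593 and 1112 at 20M and 639.9, 368 and 1711 at 30M, highest in 30M_220, 12M_208 and 20M_222. In 20M_222 the single markers went both ways relative to 20M_213. Myh6, Actc1, Sln, Ryr2 and Myl3 were above it (Myl3 at 138 against 6.62 CPM), and Myl7, Myl4, Tnnt2, Tnni3 and Nppa were below it. Skeletal muscle markers were at 3831 CPM in 20M_222 and 48.6 in 30M_220, and the fast myosin gene Myh4 had counts in 20M_222 and 0 in each of the other 11 libraries. The part of either in the isoform shares was not tested.

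Cox7a1 made up 9.04% to 21.2% of Cox7a1 and Cox7a2 together, highest in 12M_208 and 20M_222. Cox8b made up 3.89% to 10.3% of Cox8a and Cox8b, highest in 20M_222 and lowest in 20M_221. Cox7a1 was at 3.73, 4.95 and 3.88 CPM at 6M and 4.84, 4.84 and 4.59 at 30M, and Cox8b at 3.13, 4.70 and 3.72 CPM at 6M and 3.55, 4.26 and 5.75 at 30M. Neither passed at 30M against 6M (adjusted p = 0.923 and 0.908 by edgeR), and the intervals, -0.58 to 0.95 and -0.59 to 1.06, leave room for a change either way. Over the 4 ages the Cox7a1 share was 9.73 ± 1.16%, 14.8 ± 5.69%, 15.6 ± 4.45% and 11.4 ± 3.19% (mean ± SD, n = 3). Cox7a2, the general form, was at 66.3, 70.2 and 68.6 CPM at 6M and 78.8, 82.1 and 45.5 at 30M, with 73.8, 41.3 and 50.4 at 20M. Cox6b2, known from testis, made up 3.37% to 7.98% of Cox6b1 and Cox6b2, at 9.70, 10.2 and 10.3 CPM at 6M and 7.34, 11.1 and 11.5 at 30M.

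Ndufa4l2, a hypoxia-inducible relative of Ndufa4, had the largest estimate among the tested members at 20M against 6M, at 12M against 6M and, below 0, at 30M against 20M, though not at 30M against 6M (0.25). It was at 11.8, 13.1 and 10.8 CPM at 6M, 13.4, 15.6 and 30.2 at 12M, 8.93, 20.8 and 37.9 at 20M and 8.63, 14.9 and 19.0 at 30M. Its highest libraries, 20M_222 and 12M_208, lay beside low ones of the same age. Its share of Ndufa4 and Ndufa4l2 together ran from 7.40% in 30M_216 to 34.3% in 20M_222. The log2 change was 0.92 at 20M against 6M (SE 0.47, adjusted p = 0.646), and -0.039 with a term for the 3 libraries. Ndufa4l2 and Cox5b-ps were the members that were higher, not lower, in 30M_220 and in both 20M_221 and 20M_222 than in the rest of their ages. Ndufa4 was at 137, 82.8 and 91.6 CPM at 20M and 136, 133 and 76.6 at 30M, low in the same 3 libraries.

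The c ring of the ATP synthase is encoded by 3 genes with the same mature protein, and their proportions varied little. Atp5g1 gave 3.90% to 6.34% of the summed CPM per kb, Atp5g2 38.3% to 45.6% and Atp5g3 50.2% to 55.3%. A pseudogene copy of Atp5g1, 99.8% identical over 411 bases, makes its share uncertain, while no copy was found for Atp5g2 and Atp5g3. Shares per kb also depend on length: the longest coding transcript has 4715 bases for Atp5g1, 753 for Atp5g2 and 723 for Atp5g3. At 6M the shares were 4.93 ± 0.285%, 43.9 ± 1.23% and 51.2 ± 1.19% (SD, n = 3), and at 30M 5.27 ± 1.25%, 42.6 ± 3.83% and 52.1 ± 2.81%.

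**Figure D5:**
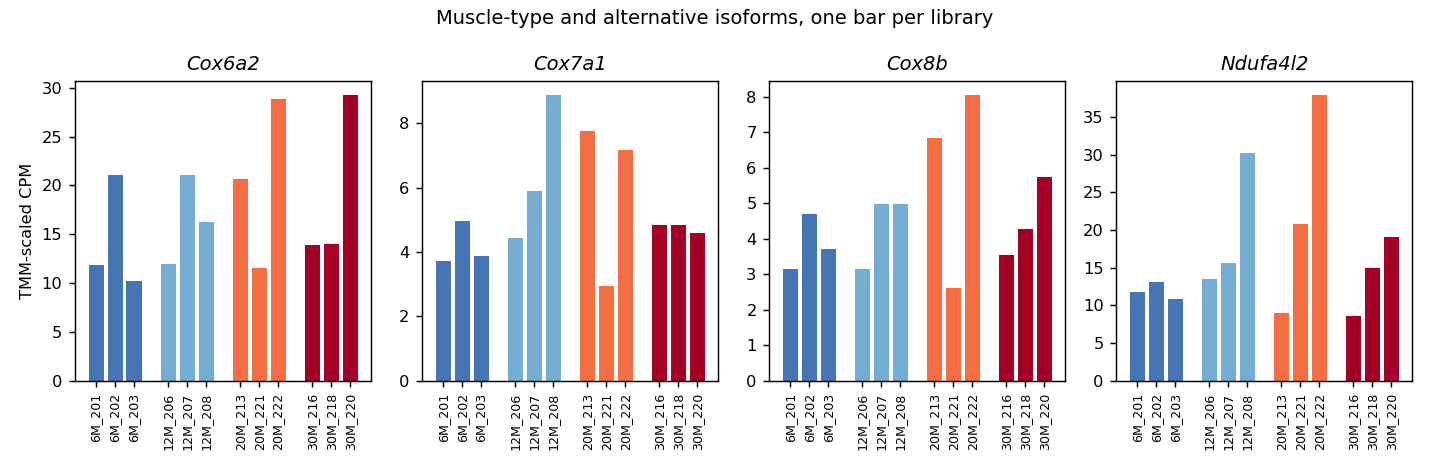
TMM-scaled CPM of Cox6a2, Cox7a1, Cox8b and Ndufa4l2, 1 bar per library, coloured by age. Cox6a2 is highest in 30M_220 (29.2 CPM) and 20M_222 (28.9 CPM), and Ndufa4l2 in 20M_222 (37.9 CPM).

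Genes that build, feed or regulate the complexes gave 0 calls by edgeR at 30M against 6M, and by DESeq2 and voom too, unless said otherwise. The shares of all genes to set these counts against are those given above, 1.96% passing by edgeR and 8.0% higher and 3.57% lower at an unadjusted p under 0.05. Of 43 tested assembly factors of the respiratory complexes, 0 passed and 0 had an unadjusted p under 0.05 (0 by DESeq2, 2 by voom), with 23 above 0 (median 0.023). The copper chaperone gene Sco2 was at 9.15 ± 1.17 CPM in the 6M libraries and 6.53 ± 0.767 in those of 30M (log2 -0.48, SE 0.24, adjusted p = 0.489) and Ndufaf4, of complex I assembly, at 21.2 ± 3.25 CPM in the 6M libraries and 16.7 ± 1.83 in those of 30M (log2 -0.34, SE 0.17, adjusted p = 0.494). Of the 13 subunit genes of mitochondrial DNA, 12 were tested and 0 passed (0 at an unadjusted p under 0.05, 1 by DESeq2 and 0 by voom, 4 above 0, median -0.041). Levels of these genes are uncertain, since the nuclear genome holds copies of mitochondrial sequence.

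Among 14 regulators of mitochondrial biogenesis 0 passed and 1 had an unadjusted p under 0.05 by each of the 3 tools, by edgeR Ppargc1a, which encodes PGC-1alpha. It was at 8.36, 8.17 and 6.63 CPM at 6M and 6.13, 4.02 and 4.91 at 30M, without overlap (log2 -0.62, SE 0.21, adjusted p = 0.202). Its partner receptor gene Esrra was at 32.0 ± 1.65 CPM in the 6M libraries and 37.5 ± 5.80 in those of 30M (log2 0.23, SE 0.14, adjusted p = 0.614). Of 17 genes of the tricarboxylic acid cycle and pyruvate dehydrogenase, 0 passed and 0 had an unadjusted p under 0.05 by any of the 3 tools (7 above 0, median -0.045). Of 11 electron carriers and ADP/ATP exchangers, 0 passed and 1 had an unadjusted p under 0.05 by each tool, by edgeR Etfb, at 8.25 ± 0.776 CPM in the 6M libraries and 11.3 ± 2.34 in those of 30M (log2 0.45, SE 0.21, adjusted p = 0.422).

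Glycolysis genes had a higher median. Of 17 rows (16 symbols, Aldoa being listed in 2 rows), 15 were above 0 at 30M against 6M with a median of 0.21, 0 passed by edgeR and 1, Eno1, by DESeq2 and by voom, while 3 had an unadjusted p under 0.05. By edgeR these were Eno1 at 119.8 ± 10.8 CPM in the 6M libraries and 178 ± 13.8 in those of 30M (log2 0.57, SE 0.17, adjusted p = 0.134), Gpi1 at 187 ± 9.50 CPM in the 6M libraries and 242 ± 14.5 in those of 30M (log2 0.37, SE 0.15, adjusted p = 0.340) and Pkm at 295 ± 19.6 CPM in the 6M libraries and 395 ± 32.7 in those of 30M (log2 0.42, SE 0.18, adjusted p = 0.370). For the 77 mitochondrial ribosome genes the median was 0.0065 with 43 above 0 and 0 passing (0 at an unadjusted p under 0.05 by any of the 3 tools). For 77 cytosolic ribosomal proteins it was 0.20 with 73 above 0, 1 passing by edgeR (Rps29, with Rpl7a a second by DESeq2 and voom) and 7 higher at an unadjusted p under 0.05 by edgeR, with 9 by DESeq2 and 18 by voom.

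Subunit genes outside the rule were measured too. Ndufab1 was at 43.4, 51.0 and 47.9 CPM at 6M and 42.5, 49.9 and 43.2 at 30M (log2 -0.069, adjusted p = 0.925), and Atpif1 at 67.5, 70.5 and 70.9 and 84.7, 117 and 53.7, lowest again in 30M_220 (log2 0.29, adjusted p = 0.753). Cox4i2, the lung form of subunit 4, was at 38.8, 42.9 and 34.8 CPM at 6M and 33.1, 43.4 and 38.6 at 30M (log2 -0.019, adjusted p = 0.989), with overlap.

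Copies limit what counts can show here. Of the 90 members, 26 have a transcript elsewhere in GENCODE M21 that matches theirs over at least 150 bases at 95% identity or more, 21 of them a pseudogene, and 10 share sequence with a gene that overlaps them. The split between libraries was also seen without them, though smaller. For the 62 tested members with no copy elsewhere the medians were -0.23, -0.080 and -0.20 in the 3 low libraries. In the other late ones they were 0.15, 0.16 and 0.25. For the 25 with a copy they were -0.29, -0.23 and -0.25, and 0.25, 0.22 and 0.41, further from 0 in each of these libraries. The part of copies in the size of the split was not tested.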

How the data were processed

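Gene expression was measured by RNA-seq in 12 mouse lung libraries. Per the labels' protocols, ISOGEN II served for RNA extraction, and poly-A mRNA was read as paired ends on an Illumina instrument. The deposited values are whole-number counts per gene, not normalized. Per the submitters' processing notes, FastQC 0.11.7, Trimmomatic 0.38, HISAT2 2.1.0 and featureCounts were used with GRCm38 (mm10). Overlapping genes are uncertain, since the sources used here give neither annotation release nor strand setting.

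The counts of all 12 libraries entered 1 fit of edgeR 4.0.16 (R 4.3.3) with TMM factors, filterByExpr by age and its robust quasi-likelihood test. The 6 pairs of ages, a joint test and a slope per month were tested, with Benjamini-Hochberg adjustment over 18407 genes and a threshold of 0.05. The common biological coefficient of variation was 0.236. Intervals (95%) use the fit's t quantile. CPM uses library totals over the tested genes times TMM factors, and levels per length use all exons of GENCODE M21. Library medians use log2 CPM with a prior count of 2. Copies were found with blastn 2.17.0. The test was checked on simulated counts of independent genes, with the same dispersion for all and no shift shared within a library. That check does not cover genes that move together between libraries, as the members did here.

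Named are the members with the smallest p in each direction (5 at 30M against 6M, 3 in the other tests), the highest and lowest per complex, isoform pairs and untested members, and up to 4 genes of a related list. The members and lists were chosen with earlier results of these data known. Alternatives were DESeq2 1.42.0, limma 3.58.1 voom with quality weights, other scaling and filters, only 2 ages, log2 of months, libraries left out and a term for 3 libraries. Removal of GC trends and coding-transcript length were added after seeing the data.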

Additional observations from a re-analysis of the deposited data

How the results depend on the processing

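Calls among the members came and went with the tool and the libraries used. Against 0 by edgeR with all libraries, the number called at 30M against 6M was 1 with DESeq2, 1 without 20M_221, 20M_222 and 30M_220 and 1 with a term for those libraries. At 20M against 6M it was 2 with limma voom. In the joint test it was 4 with voom and 1 with the term. For the slope it was 2 with DESeq2, 1 with voom, 2 without the 3 libraries and 1 with the term. With 1 library left out at a time the slope gave 0 to 1 calls (1 without 30M_216) and the other tests 0. The cause was not tested. Other scaling, other filters, only 2 ages, log2 of months and removal of the GC trend gave 0 calls in every test run. The median change at 30M against 6M lay between -0.020 and 0.22 over 21 alternatives, and the median of all genes between -0.025 and 0.0090.

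Of 34 changes named for their p, some reversed. At 30M against 6M Ndufc2 was 0.047 without the 3 libraries and 0.014 with the term, and -0.34 to 0.046 with 1 library left out. Its slope was 0.0014 without the 3 libraries. At 20M against 6M Ndufa4l2 was -0.42 and -0.039, and Ndufv2 0.079 and 0.13, in these 2 fits. At 30M against 20M Ndufa4l2 was 0.41 without the 3 libraries and Cox8b 0.11 with voom. No paired analysis was possible because the ages share no replicate numbers. With 3 libraries an age and totals of 12152066 to 15058628 counts, 95% intervals at 30M against 6M reached past 1.5-fold for 38 of 87 members.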
